A study of Mus musculus with 12 samples.

Results

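Angiogenin (Ang), ribonuclease 4 (Rnase4) and the ribonuclease inhibitor Rnh1 were followed in mouse yolk sacs with and without Hypb. The 3 genes were read by 5 of the 45101 probe sets on the array, and 18193 genes were tested in all. Ang was chosen by its own log2 values on these arrays, being lower in the knockout at both stages, Rnase4 because it lies beside Ang, and Rnh1 because its protein inhibits this family of enzymes. The values of Ang are therefore given as a description, with no test. The values of Rnase4 and Rnh1 did not choose them, but they come from the same arrays that chose Ang.

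Yolk sacs of Hypb+/+ (wild type) and Hypb-/- (knockout) embryos of the strain 129Sv/C57BL/6 were collected at E9.0 and at E10.5, where E stands for embryonic day. Each array held RNA of 4 yolk sacs of 1 genotype pooled together, and each of the 4 groups had 3 arrays. The labels name no other allele or treatment and do not say which part of Hypb, now called Setd2, was deleted. At E9.0 the knockout shows no severe defect to the eye, and E10.5 lies before its death. Values are the deposited log2 expression values, which carry no depth and no detection call, and precision is limited by how many arrays there were.

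Angiogenin is a small secreted enzyme of the ribonuclease A family that promotes the growth of blood vessels. It can enter cells, act on ribosomal RNA synthesis in the nucleolus and cut transfer RNAs under stress. Ribonuclease 4 is a secreted enzyme of the same family that cuts RNA after uridine. The ribonuclease inhibitor is a leucine-rich protein of the cytosol that binds enzymes of this family, angiogenin among them, and blocks their activity. Liver-type secretory epithelium makes both enzymes in adults, and the visceral endoderm of the yolk sac makes many of the same plasma proteins before the liver does.

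Ang and Rnase4 form 1 compound locus. In the RefSeq annotation of the GRCm38.p6 build, Ang spans chromosome 14, 51091077 to 51102009, and Rnase4 spans 51091077 to 51106151, both on the plus strand. The annotated starts of the 2 genes are the same base, so their 250 bases of upstream sequence are identical. Rnase4 has a further annotated start at 51096000, which lies 4923 bases downstream. Rnh1 lies elsewhere, on the minus strand of chromosome 7, 141160326 to 141172851. All 3 genes matched an entry of the RefSeq promoter table, which has 1 window for Ang, 2 for Rnase4 and 3 for Rnh1. Exons and introns at the probe positions were not analysed here.

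The upstream sequences of the Ang and Rnase4 starts are shown because the shared start gives both genes 1 promoter while the second start belongs to Rnase4 in this annotation. Each is 250 bases long and ends just before the start. Capitals mark matches, on either strand, to a set of 4 motifs that do not overlap here. The GC box was searched as GGGCGG. The CCAAT box was searched by the letters of its name. The TATA box was searched as TATAAA. The last motif, one arm of the site of the liver factor HNF1, was searched as GTTAAT. The first window is chr14:51090827-51091076 and the second chr14:51095750-51095999, plus strand, GRCm38.p6.
Ang and Rnase4, shared start: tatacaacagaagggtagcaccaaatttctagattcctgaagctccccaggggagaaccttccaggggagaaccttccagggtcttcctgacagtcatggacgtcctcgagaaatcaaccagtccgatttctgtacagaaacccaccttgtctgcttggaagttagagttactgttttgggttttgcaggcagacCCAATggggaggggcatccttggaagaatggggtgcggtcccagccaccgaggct
Rnase4, second start: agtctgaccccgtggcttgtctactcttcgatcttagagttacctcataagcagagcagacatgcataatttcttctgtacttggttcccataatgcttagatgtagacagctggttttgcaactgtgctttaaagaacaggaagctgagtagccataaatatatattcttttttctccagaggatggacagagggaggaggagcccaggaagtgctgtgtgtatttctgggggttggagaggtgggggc
The shared window held 1 match, a CCAAT box whose first base lies 55 bases before the start, and the second window held none of the 4 motifs. Of 32817 upstream windows of this length in the table, 33.8% held a CCAAT box, 32.7% a GC box, 12.4% a TATA box and 6.4% the HNF1 arm. The shared window held 5 CG dinucleotides and the second window 2, against a median of 6 over all windows. No match says only that these letters are not in these windows.

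The Setd2 signal checked the labels, with the knockout arrays below the wild type arrays at both stages. Its values ran from 8.83 to 9.08 in wild type and from 7.53 to 7.99 in knockout at E9.0, and from 8.66 to 8.77 and from 7.77 to 8.07 at E10.5. Array medians lay between 5.27 and 5.34. Hybridisation and labelling controls stood apart in replicate 3. The BioC control minus BioB was -0.02 and -0.1 in replicate 3 of wild type and knockout at E9.0 and at least 1.42 on the other 10 arrays, and the dap control's 3' minus 5' value was 1.53 to 1.87 in replicate 3 of each group and 1.19 to 1.44 elsewhere. Replicate 3 holds both genotypes at both stages, so values within replicates 1 and 2 are given beside the pooled ones. The labels do not name it as a batch. They do call the arrays biological repeats, and no pair of arrays held the same values.

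Ang was lower in the knockout at both stages in all 3 of its probe sets. On the probe set with the highest mean, 1438936_s_at, the 3 wild type arrays at E9.0 read 10.86, 10.93 and 11.24, and the 3 knockout arrays 9.47, 8.9 and 9.52. At E10.5 the wild type arrays read 11.97, 11.47 and 12, and the knockout arrays 10.58, 10.65 and 10.54. The genotypes did not overlap at either stage, with a gap of 1.34 between them at E9.0 and 0.82 at E10.5. The group means were 11.01 ± 0.20 (SD, n = 3) and 9.30 ± 0.34 (SD, n = 3) for wild type and knockout at E9.0, a log2 difference of -1.71 (SE 0.18; 3.28-fold lower). They were 11.81 ± 0.30 (SD, n = 3) and 10.59 ± 0.056 (SD, n = 3) at E10.5, a log2 difference of -1.22 (SE 0.18; 2.33-fold lower). Among the 18193 genes, Ang had the 3rd lowest log2 difference at E9.0 and the 60th lowest at E10.5. Within replicates 1 and 2 the differences were -1.71 and -1.11, and in replicate 3 they were -1.72 and -1.46.

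As background to these differences, 0.632% of all genes fell and 0.55% rose past an adjusted p of 0.05 at E9.0, and 3.16% fell and 4.12% rose at E10.5. In addition, all 3 knockout arrays lay below all 3 wild type arrays for 9.42% and 11.3% of genes. Ang is among these genes by its choice, and nothing is read from that.

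The other Ang probe sets gave the same order of groups with other sizes. The suffix _x in 1438937_x_at marks probes that may bind other transcripts, and the suffix _s in 1438936_s_at marks probes shared between transcripts. Ang has close paralogs in the mouse, so signal from them on those probe sets cannot be told apart. On 1438937_x_at the wild type arrays read 9.2, 9.23 and 9.55 at E9.0 and 10.39, 10.01 and 10.71 at E10.5, and the knockout arrays 7.76, 7.46 and 7.92, then 8.54, 8.83 and 9.05. On 1450717_at, which has neither suffix, the wild type arrays read 7.84, 7.78 and 8.11 at E9.0 and 9.11, 8.78 and 9.3 at E10.5. Its knockout arrays read 6.33, 7.01 and 6.97 at E9.0 and 7.02, 7.52 and 7.39 at E10.5. All knockout arrays lay below all wild type arrays of their stage on both probe sets.

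The probe sets differed on the stage at which the difference was larger. The knockout difference was -1.71 at E9.0 and -1.22 at E10.5 on 1438936_s_at. It was -1.61 (SE 0.19) and -1.56 (SE 0.19) on 1438937_x_at. It was -1.14 (SE 0.20) and -1.75 (SE 0.20) on 1450717_at. The change of the knockout difference from E9.0 to E10.5 was thus 0.49 (SE 0.26), 0.05 (SE 0.27) and -0.61 (SE 0.28) on the 3 probe sets, with errors from the fit over all probe sets. The sign turned with the probe set. Over deviations of the 12 arrays from their group means, 1438936_s_at had a Pearson r of 0.78 with 1438937_x_at and 0.18 with 1450717_at.

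**Figure D1:**
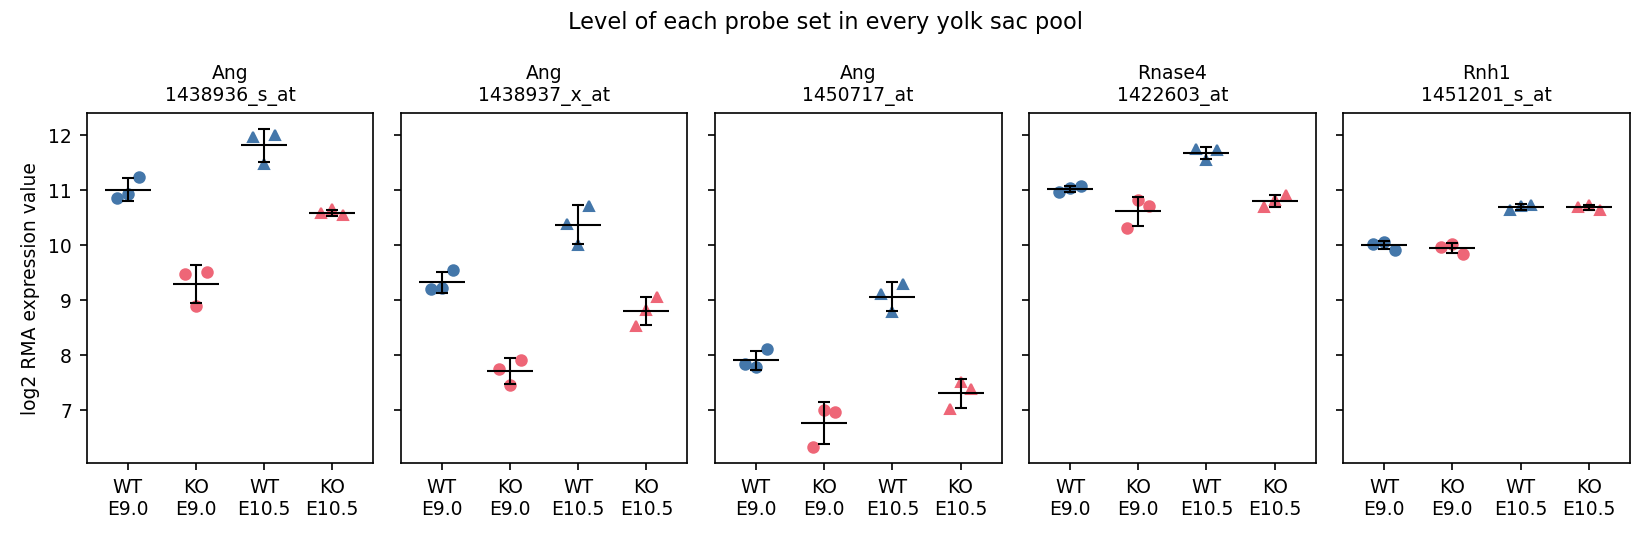
Log2 RMA expression value (vertical axis) of the 5 probe sets in each pool of yolk sacs, by genotype (WT, wild type; KO, knockout) and stage; points are arrays, long bars are means and whiskers SD over 3 arrays. On all 3 Ang probe sets the groups run from E10.5 wild type at the top to E9.0 knockout at the bottom, while the 2 genotypes of Rnh1 overlap at each stage.

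Rnase4, which shares the start of Ang, fell in the knockout at E10.5 and did not pass the test at E9.0. On its 1 probe set, 1422603_at, the wild type arrays at E9.0 read 10.97, 11.03 and 11.08 and the knockout arrays 10.31, 10.82 and 10.71. At E10.5 the wild type arrays read 11.74, 11.54 and 11.73 and the knockout arrays 10.69, 10.82 and 10.91. The genotypes did not overlap at either stage, but the gap between them was 0.15 at E9.0 and 0.63 at E10.5. Such a separation, knockout below wild type, held for 9.42% and 11.3% of all genes.

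The Rnase4 means at E9.0 were 11.03 ± 0.055 (SD, n = 3) in the wild type and 10.61 ± 0.27 (SD, n = 3) in the knockout. The log2 difference of -0.41 (SE 0.13; 1.33-fold; limma adjusted p = 0.162, unadjusted p = 0.00656) did not pass the threshold of 0.05 over all genes. At E10.5 the means were 11.67 ± 0.11 and 10.81 ± 0.11 (SD, n = 3 each), and Rnase4 fell by 0.86 (SE 0.13; 1.82-fold; limma adjusted p = 0.00154). It was lower in 3 of 3 knockout arrays, against all wild type arrays, at both stages. The same held for 9.42% of all genes at E9.0 and 11.3% at E10.5. Within replicates 1 and 2 the differences were -0.44 (adjusted p = 0.275) and -0.89 (adjusted p = 0.0188), and in replicate 3 they were -0.37 and -0.82. Leaving out any 1 of the 12 arrays gave an adjusted p of 0.104 to 0.484 at E9.0 and 0.000551 to 0.0103 at E10.5.

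The change of the Rnase4 difference between stages was -0.45 (SE 0.18; limma adjusted p = 0.497, unadjusted p = 0.0269), so the call at E10.5 and its lack at E9.0 do not show that the effect differed between stages. For this test 34 of the 18193 genes passed, or 0.187%. The 95% interval of the knockout difference of Rnase4 was -0.69 to -0.14 at E9.0 and -1.14 to -0.59 at E10.5. The difference between Ang and Rnase4 was not tested, since Ang was chosen for its fall.

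Rnh1, the inhibitor of both enzymes, showed no detectable difference between genotypes at either stage. Its 1 probe set, 1451201_s_at, carries the suffix _s, which marks probes shared between transcripts. It read 10.03, 10.05 and 9.92 on the wild type arrays and 9.97, 10.02 and 9.84 on the knockout arrays at E9.0. At E10.5 it read 10.63, 10.71 and 10.73 in the wild type and 10.7, 10.73 and 10.64 in the knockout. The genotypes overlapped at both stages, and the E10.5 means were both 10.69 (SD 0.053 in wild type and 0.046 in knockout, n = 3). The log2 difference was -0.057 at E9.0 (95% interval -0.24 to 0.13; limma adjusted p = 0.89) and 0 at E10.5 (-0.19 to 0.19; adjusted p = 1). Its change between stages was 0.057 (SE 0.12; adjusted p = 0.959). A p of this size does not show that the genotypes are alike, and the intervals give the sizes that these arrays leave possible.

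**Figure D2:**
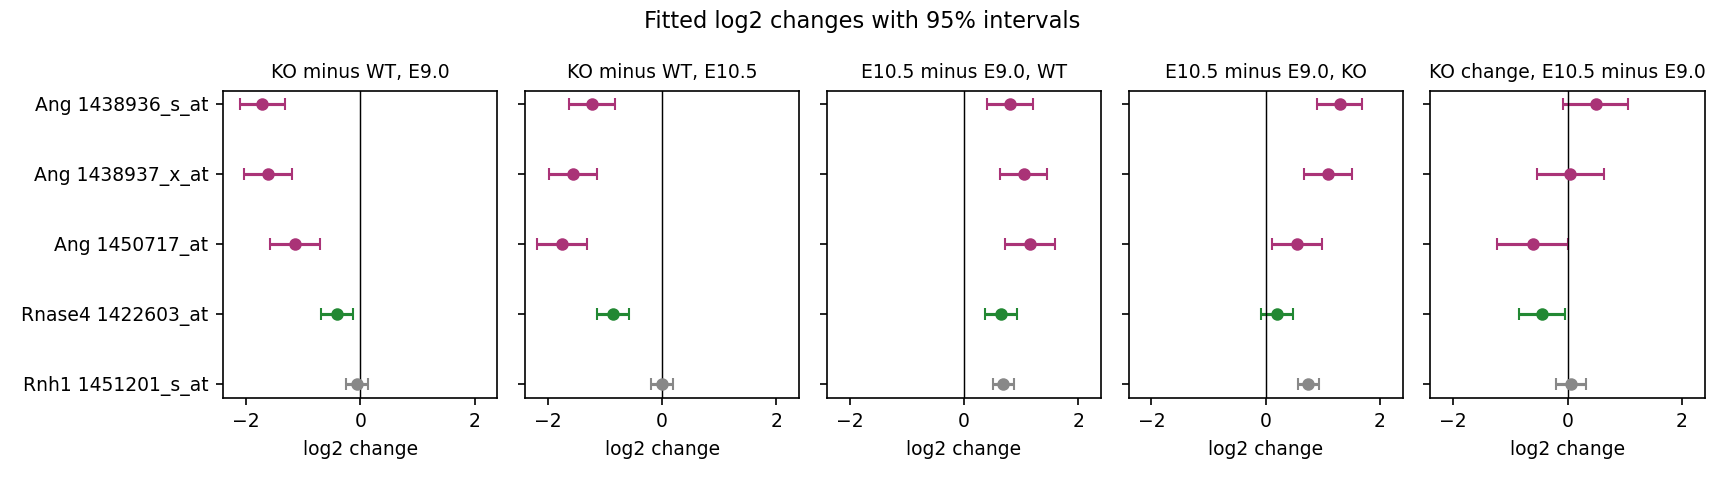
Fitted log2 change (horizontal axis) of each probe set in the 5 comparisons, with 95% intervals as bars from the limma fit over all probe sets; KO is knockout, WT wild type. The bars of Ang show its error and no test. The Ang and Rnase4 points lie left of 0 in both genotype comparisons with Rnh1 near 0, and the 3 Ang points of the last panel lie on both sides of 0.

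The normal development of the yolk sac from E9.0 to E10.5 was a comparison that did not choose Ang. The wild type arrays entered that choice all the same, so the values of Ang are given here with no test. Rnase4 and Rnh1 rose in the wild type, where 22.2% of all genes changed, 13.4% upward and 8.86% downward. Rnase4 rose by 0.64 (SE 0.13; 1.56-fold; limma adjusted p = 0.00328) and Rnh1 by 0.69 (SE 0.0865; 1.61-fold; adjusted p = 0.000171). Ang was higher at E10.5 by 0.80 on 1438936_s_at (SE 0.18; 1.75-fold). For each gene all 3 E10.5 arrays lay above all 3 E9.0 arrays, as they did for 22.7% of genes. The other Ang probe sets were higher by 1.04 and 1.15. The highest limma adjusted p without any 1 array was 0.0164 for Rnase4 and 0.00134 for Rnh1.

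In the knockout 23.6% of genes changed from E9.0 to E10.5, of which 14.4% of all genes rose and 9.17% fell. Rnh1 rose by 0.75 (SE 0.0865; 1.68-fold; limma adjusted p = 0.000101), and all its E10.5 arrays lay above its E9.0 arrays, as did those of 20.7% of genes. Rnase4 had a change of 0.19 (SE 0.13; limma adjusted p = 0.316), its arrays overlapped, and whether this differs from the wild type is the between-stage test above, which did not pass. Ang had changes of 1.29, 1.09 and 0.54 on its 3 probe sets, given with no test because these knockout arrays were part of its choice. On 1450717_at the lowest E10.5 knockout array lay only 0.01 above the highest E9.0 knockout array.

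The order of the 4 group means was the same for Ang, on each probe set, and for Rnase4. It ran from E10.5 wild type through E9.0 wild type and E10.5 knockout to E9.0 knockout. For Ang the place of the knockout below the wild type at each stage was set by its choice. The share of all genes with this order was not counted, so nothing is read from it. The E10.5 knockout mean thus lay below the wild type mean of the earlier stage, at 10.59 against 11.01 for Ang on 1438936_s_at and 10.81 against 11.03 for Rnase4. For Rnh1 the order followed the stage, and the genotypes overlapped within each stage.

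Across the 12 arrays the levels of Ang and Rnase4 had a Pearson r of 0.84, which ranked Rnase4 164th among the 18192 other genes by likeness to Ang. The arrays fall into 4 groups, and over deviations from the group means r was -0.091. For Ang and Rnh1 the corresponding values were 0.57 and -0.59, and for Rnase4 and Rnh1 0.50 and -0.21. All values describe 12 arrays that share their stage and genotype groups.

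**Figure D3:**
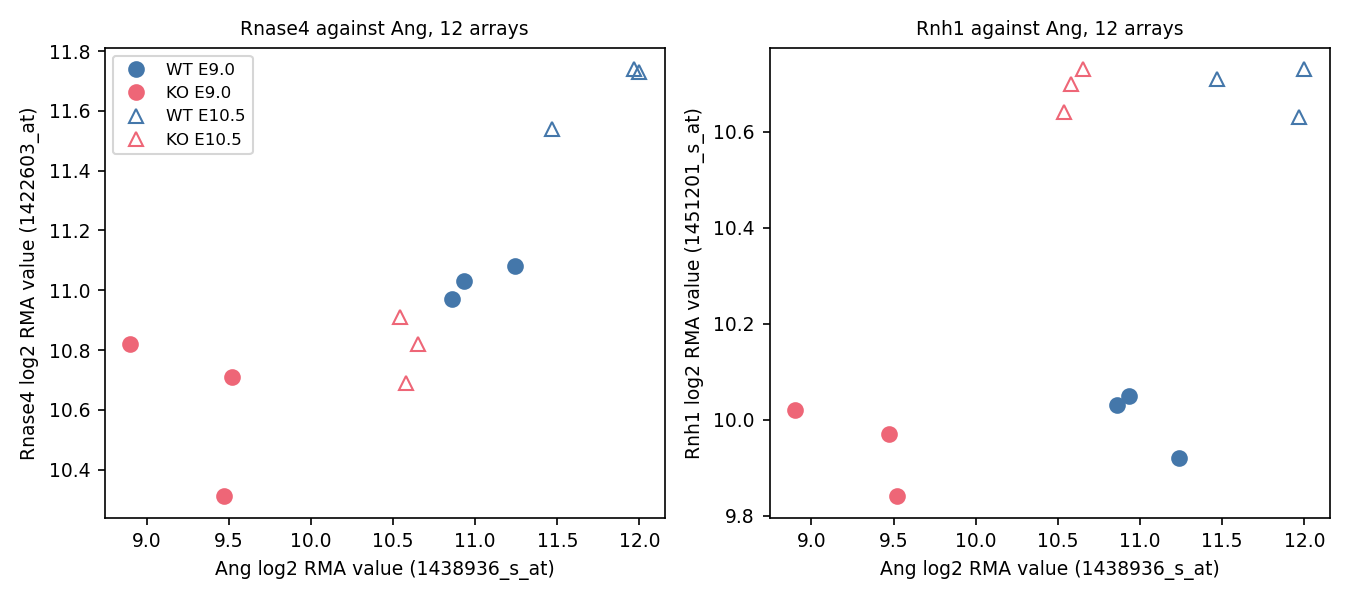
Log2 RMA values of Rnase4 (left) and Rnh1 (right) on the vertical axes against those of Ang on probe set 1438936_s_at, 1 point for each of the 12 arrays; filled circles are E9.0, open triangles E10.5, blue wild type (WT) and red knockout (KO). Rnase4 separates the wild type groups from the knockout groups at each stage, and Rnh1 separates only the stages.

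The genes most like each member over the 12 arrays, by Pearson r, were taken as a description, since Ang was chosen for its pattern. For Ang they were Lrif1 (r = 0.953), Mcm8 (0.946), Tmem199 (0.942), Cuedc2 (0.933) and the lysosomal thiol reductase gene Ifi30 (0.930). Their knockout differences were smaller than that of Ang, from -1.10 (Ifi30) to -0.42 (Cuedc2) at E9.0. For Rnase4 they were C1qtnf12 (0.972), Eps8l3 (0.967), the retromer subunit gene Vps35 (0.962), Tmem54 (0.959) and the prefoldin-like gene Uxt (0.957). Of these Tmem54 had the lowest knockout differences, -1.40 at E9.0 and -2.05 at E10.5. For Rnh1 they were the leukocyte membrane protein gene Cd53 (0.992), Atraid (0.992), the prefoldin subunit gene Pfdn5 (0.991), Akr1c19 (0.990) and L3hypdh (0.989), which rose from E9.0 to E10.5 in the wild type by between 0.71 (Pfdn5) and 2.03 (Cd53).

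The genes around the members were read from the RefSeq table, within 100 kb of the start of Ang or of Rnh1. A start is the upper coordinate of a gene on the minus strand and the lower one otherwise, also where the promoter table gave no strand, as for 8 genes around Ang and 7 around Rnh1. Around Ang lay 20 annotated genes, of which 6 were measured, all of the ribonuclease A family. Besides Ang and Rnase4 these were Rnase10, Rnase6, Rnase1 and Rnase2b, the last encoding an eosinophil-type ribonuclease. None of the 4 passed the test in either genotype comparison, where 1.18% of all genes were called at E9.0 and 7.28% at E10.5. Their log2 differences ran from -0.20 (Rnase6) to 0.12 (Rnase10) at E9.0 and from -0.04 (Rnase10) to 0.24 (Rnase6) at E10.5. Their mean levels over the 12 arrays lay between 2.80 and 4.48 in a table that runs from 2.03 to 14.49. The window also held 7 transfer RNA genes, all upstream, and the nearest, n-TPtgg5, has its lower coordinate 0.43 kb before the shared start. They were not measured.

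Around Rnh1 lay 17 annotated genes, of which 11 were measured, Rnh1 among them and 3 without a strand. Where limma called 1.18% of all genes at E9.0 and 7.28% at E10.5, 0 of these passed at E9.0 and 1 at E10.5. This was the interferon regulatory factor gene Irf7, which starts 93.6 kb from Rnh1 and rose by 0.71 (limma adjusted p = 0.00807) at E10.5, with a difference of 0.11 (adjusted p = 0.845) at E9.0. The desmosome gene Pkp3 had the lowest differences there, -0.62 at E9.0 (limma adjusted p = 0.108) and -0.55 at E10.5 (adjusted p = 0.0712). Lrrc56, whose start is nearest to that of Rnh1 among the measured genes at 21.3 kb, gave 0.02 and 0.18 (adjusted p = 0.982 and 0.431).

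**Figure D4:**
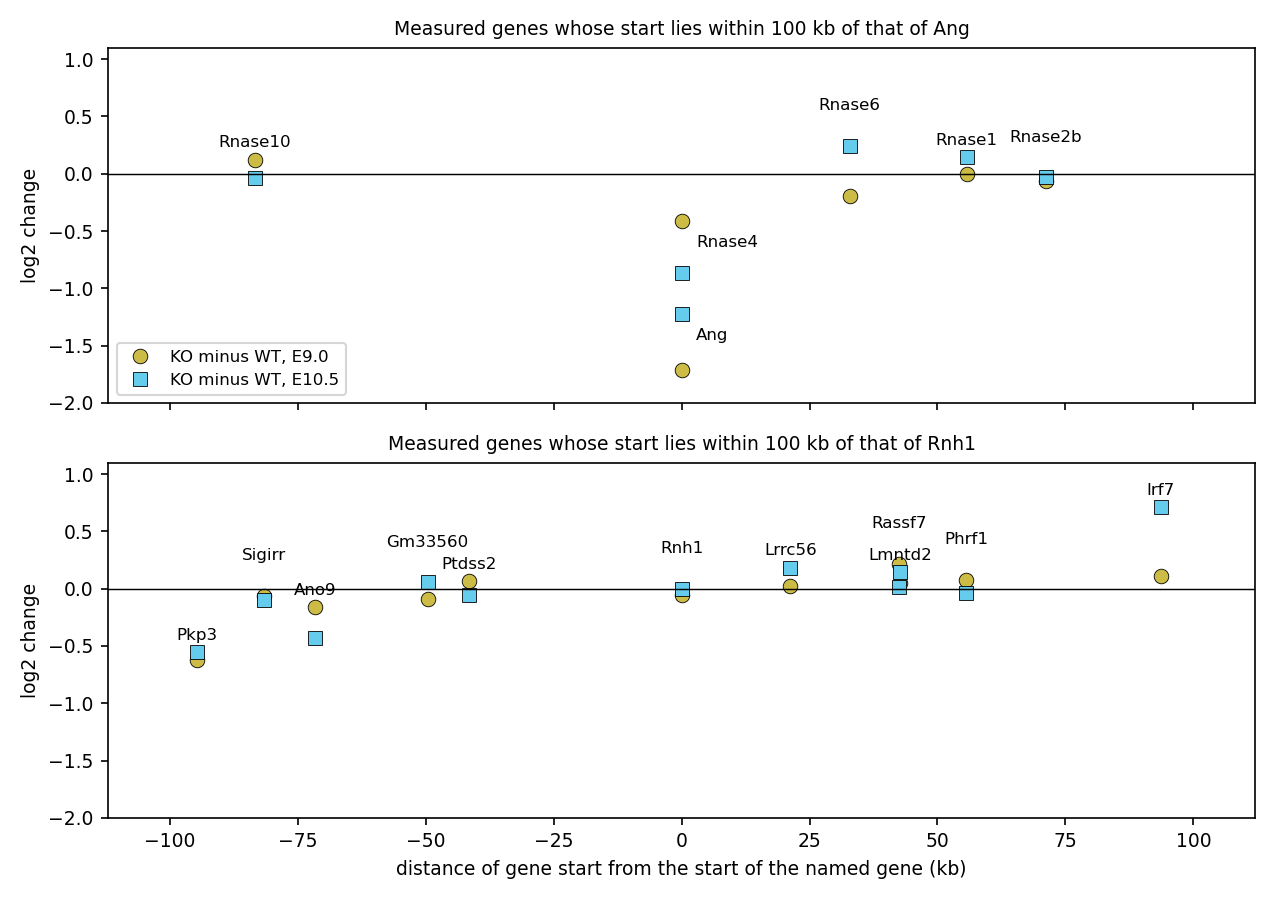
Log2 knockout minus wild type difference (vertical axis) at E9.0 (circles) and E10.5 (squares) of the measured genes whose start lies within 100 kb of that of Ang (top) or Rnh1 (bottom), by the distance between the starts in kb along the chromosome (horizontal axis). Ang and Rnase4 at distance 0 in the upper panel are the lowest points, and the other genes of the upper panel lie between -0.20 and 0.24.

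The ribonuclease A family as a whole had 11 measured members of 24 looked for. Ang is left out of the counts, since its fall chose it. Of the other 10, 0 passed by limma at E9.0, where 1.18% of all genes were called in either direction. An unadjusted p under 0.05 was reached by 2 of the 10 at E9.0 and 2 at E10.5. Of all 18193 genes, 2149 and 3680 reached it. At E10.5 1 of the 10 fell, Rnase4, and 0 rose, where 7.28% of all genes were called. The 9 members beside Ang and Rnase4, among them the angiogenin paralogs Ang2, Ang3 and Ang4 and the eosinophil-type genes Rnase2a and Ear3, had mean levels of 2.71 to 4.48. Ang2 was the lowest of them at E9.0, at -0.32 (SE 0.14; limma adjusted p = 0.37), and Ang3 at E10.5, at -0.27 (SE 0.12; adjusted p = 0.226). The median without Ang was -0.072 at E9.0 and -0.035 at E10.5, beside -0.0067 and -0.013 for all genes. From E9.0 to E10.5 in the wild type 1 of the 10 members without Ang rose, Rnase4, and 0 fell, where 22.2% of all genes changed.

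Other ribonucleases were called between genotypes at shares near those of all genes. Of 31 measured, 0 passed by limma at E9.0, where 1.18% of all genes were called. An unadjusted p under 0.05 was reached there by 4 of the 31, and by 2149 of all 18193 genes. At E10.5 1 rose and 2 fell, beside 7.28% of all genes. An unadjusted p under 0.05 was reached at that stage by 9 of the 31, and by 3680 of all genes. Rpp25 (-0.88, SE 0.16; limma adjusted p = 0.00667) and Rpp40 (-0.48, SE 0.12; adjusted p = 0.0333), both subunits of the RNase P complex that trims transfer RNA precursors, fell, and N4bp1 rose by 0.35 (SE 0.098; adjusted p = 0.0499). In wild type development 5 rose and 7 fell, where 13.4% of all genes rose and 8.86% fell. The exosome nuclease gene Dis3 (-0.88), the tRNA 3' end nuclease gene Elac2 (-0.76) and the microRNA processing gene Drosha (-0.75) fell, and the RNase H2 subunit gene Rnaseh2b rose by 0.66. The median was 0 in that comparison, beside 0.03 for all genes.

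A list of 20 measured genes, drawn up around the actions of angiogenin, holds its receptor Plxnb2 and the nucleolar protein gene Ncl. It also holds stress granule, translation factor, tRNA methyltransferase and RNA polymerase I genes. Not all of them are genes through which angiogenin acts, and their levels do not measure its activity. At E9.0 0 of 20 passed by limma and 0 had an unadjusted p under 0.05, and at E10.5 0 passed and 2 had such a p. Of all 18193 genes, 2149 had such a p at E9.0 and 3680 at E10.5. With 1.18% and 7.28% of all genes called, counts of 0 in a list of this size are near the background. Plxnb2 gave -0.31 (SE 0.16; limma adjusted p = 0.48) at E9.0 and -0.36 (SE 0.16; adjusted p = 0.221) at E10.5. In wild type development 2 rose and 7 fell, where 13.4% and 8.86% of all genes did, with a median of -0.26 beside 0.03 for all genes. The changes of the list ran from -1.003 to 0.47. Among those that fell were the RNA-binding protein gene Ybx1 (-0.67), the stress granule gene G3bp2 (-1.003), the RNA polymerase I subunit gene Polr1a (-0.62) and the tRNA methyltransferase gene Nsun2 (-0.47). Rnase4 and Rnh1 rose over the same interval, and a link between them and this list was not tested.

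Of 24 measured genes for plasma proteins that endoderm secretes, 14 rose from E9.0 to E10.5 in the wild type, 10 were not called and 0 fell, where 13.4% of all genes rose, with a median of 0.73 beside 0.03 for all genes. The 4 with the smallest p were the kininogen gene Kng1 (4.38), the albumin gene Alb (3.82), the protease inhibitor gene Serpina1b (2.89) and the fibrinogen gene Fgg (1.42). In the knockout 1 of them rose at E9.0, Kng1 (1.31), and 0 fell, beside 0.55% and 0.632% of all genes. At E10.5, where 3.16% of all genes fell, 4 of the 24 did and 0 rose. Those that fell were Alb (-2.22), the plasminogen gene Plg (-1.13), Ambp (-0.76) and the prothrombin gene F2 (-0.58). The median was -0.17 beside -0.013 for all genes. An unadjusted p under 0.05 was reached by 3 of the 24 at E9.0 and 8 at E10.5. Of all 18193 genes, 2149 and 3680 reached it.

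A list of 13 measured transcription factors held regulators of endoderm and the widely expressed insulator protein gene Ctcf. At E9.0 0 passed by limma, where 1.18% of all genes were called. At E10.5 1 rose, Foxa1 (0.93, SE 0.24, limma adjusted p = 0.0361), where 4.12% of all genes rose. An unadjusted p under 0.05 was reached by 1 of the 13 at E9.0 and 6 at E10.5. Of all 18193 genes, 2149 and 3680 reached it. The differences at E10.5 ran from -0.70 to 0.93. Hnf4a, a main regulator of liver-type genes, gave -0.22 (limma adjusted p = 0.499) and -0.35 (adjusted p = 0.0946). In wild type development 3 of the factors rose and 3 fell, where 13.4% and 8.86% of all genes did, with Cebpa (3.2), the bile acid receptor gene Nr1h4 (2.60) and Foxa3 (0.93) rising and Ctcf (-0.40) falling.

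**Figure D5:**
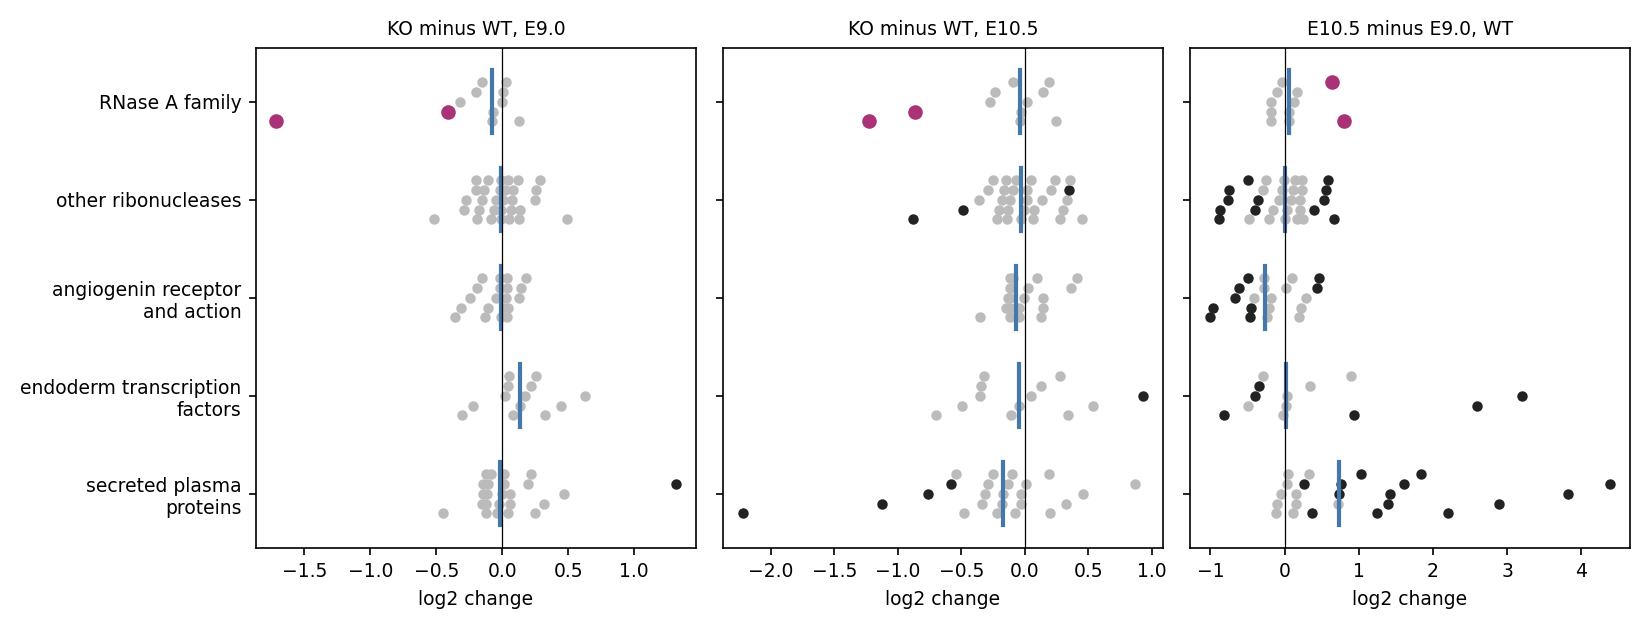
Log2 change (horizontal axis) of each measured gene of 5 lists in 3 comparisons; large purple points are Ang and Rnase4 whatever their test, black points passed an adjusted p of 0.05, grey points did not, and blue bars are list medians. In both genotype panels Ang and Rnase4 are the lowest of their family, whose other 9 members are grey.

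These are bulk samples, so fewer cells of a type and less RNA per cell cannot be told apart. Markers of visceral endoderm, the epithelium that makes plasma proteins in this tissue, were present, with Afp at a mean of 13.99. Some markers, Afp, Hnf4a and Foxa3 among them, are also in the plasma protein or transcription factor list. The medians of these lists are therefore not separate observations. The summed level of all 12 of the 12 visceral endoderm markers is the log2 of a sum of unlogged values, so the brightest weigh most. At E9.0 it ran from 16.50 to 16.52 in wild type and from 16.40 to 16.56 in knockout. There 0 of 12 were called by limma, beside 1.18% of all genes. An unadjusted p under 0.05 was reached by 1 of 12, and by 2149 of all 18193 genes. At E10.5 the summed level ran from 16.60 to 16.68 in wild type and from 16.47 to 16.57 in knockout. By limma 1 of 12 was called, Cubn (-0.36), where 7.28% of all genes were called and 3.16% fell. An unadjusted p under 0.05 was reached by 6 of 12, and by 3680 of all 18193 genes. The median difference was -0.21 beside -0.013 for all genes. The marker differences at E10.5 ran from -0.38 to 1.04, so not all markers were lower in the knockout. The summed levels of the genotypes overlapped at E9.0 and did not at E10.5, where their means were 16.64 and 16.50.

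The sums for other cell types are made in the same way. Above the median gene lay 13 of 13 primitive red cell, 9 of 10 endothelial and 8 of 10 mesothelium and mesenchyme markers. Fewer did of the other lists, 3 of 8 macrophage, 2 of 7 heart muscle and 2 of 6 trophoblast and decidua markers. Markers of other cell types are set beside the 4.12% of all genes that rose and the 3.16% that fell at E10.5. The sum of 8 macrophage markers ran from 10.03 to 10.11 in wild type and from 10.78 to 10.81 in knockout, with 4 of 8 higher. Over 7 heart muscle markers it ran from 9.20 to 9.50 and from 10.12 to 11.52, with 4 of 7 higher, and over 10 mesothelium and mesenchyme markers from 14.11 to 14.32 and from 14.38 to 15.00, with 4 of 10 higher. Endothelial sums ran from 11.06 to 11.46 and from 11.46 to 11.83, with 2 of 10 higher, and those of 13 primitive red cell markers from 15.89 to 15.91 and from 15.59 to 15.85, with 2 of 13 lower. Over 6 trophoblast and decidua markers they ran from 8.83 to 9.98 and from 8.39 to 9.80, with 0 of 6 called by limma and 0 at an unadjusted p under 0.05. At E9.0 the macrophage sums ran from 8.73 to 8.92 in wild type and from 9.21 to 9.45 in knockout, with 2 of 8 higher and 1 lower, beside 0.55% and 0.632% of all genes. The other lists had no member called by limma at E9.0. An unadjusted p under 0.05 was reached there by 3 of 7 heart muscle and 2 of 10 mesothelium and mesenchyme markers. It was reached by 0 of the red cell, endothelial and trophoblast markers, and by 2149 of all 18193 genes. The part of these shifts in the changes of Ang and Rnase4 was not tested.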

How the data were processed

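RNA of pooled yolk sacs was hybridised to Affymetrix mouse expression arrays. The authors deposited log2 expression values, and the submitters' processing notes name RMA without a version. The table held 12 columns and 45101 probe sets. Because RMA gives every array the same distribution, a shift common to all transcripts would not be seen.

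Leaving aside 64 control probe sets, 34945 had 1 gene symbol in the platform annotation, 932 several and 9160 none. For each of 18193 genes the probe set with the highest mean was used. The 4 group means were estimated from the 12 arrays in 1 linear model, using limma 3.58.1 and R 4.3.3 (8 residual and 4.56 prior degrees of freedom), with two-sided tests and Benjamini-Hochberg adjustment over all genes of each of 5 comparisons at a threshold of 0.05. A second fit over all 45037 probe sets served the single probe sets. Genes that passed are said to rise, fall or be called. The fit was tested on simulated data for the genotype comparison at E9.0. It found 21 of 74 changes of size 0.5, 64 of 68 of size 1 and 58 of 58 of size 2, with 8 false calls. A change of 0.5 was thus missed more often than found.

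The members and the gene lists were chosen with earlier results of these data known. Named were the members, Setd2, the called genes of each list (the 4 with the smallest p where over 5 passed), the measured family and neighbouring genes as counts and extremes, and the 5 genes most like each member, clone and model symbols passed over. Genes with uncalled values (Plxnb2, Hnf4a, Ang2, Ang3, Pkp3, Lrrc56, and the marker Afp) were named outside that rule, after their values were seen. Sequences come from RefSeq tables of GRCm38.p6. Replicate numbers were not taken as pairs. Alternatives changed the probe set, scaling, filter, moderation, blocks and arrays.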

Additional observations from a re-analysis of the deposited data

How the results depend on the processing

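In the 12 fits that leave out 1 array each, the changes of Rnase4 and Rnh1 in the 5 comparisons kept their side of the threshold. Ang ranged from -1.83 to -1.52 at E9.0 and from -1.40 to -1.13 at E10.5. Ang depended on its probe set. With 1450717_at, chosen after seeing the data, it gave -1.14 at E9.0, -1.75 at E10.5, -0.61 for the change between stages and 0.54 for the knockout's development. With 1438937_x_at, also chosen after seeing the data, and with the probe set of largest variance it gave -1.56 at E10.5 and 0.05 for the change between stages. With the mean of all probe sets it gave -1.51, -0.024 and 0.98 for E10.5, the change between stages and the knockout's development. Scaling, filter, moderation, batch and within-replicate alternatives changed no call of Rnase4 or Rnh1. The cause of the probe set differences was not tested.

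Same-numbered arrays of the genotypes deviated together with correlations of 0.034 to 0.24 at E9.0 and 0.067 to 0.40 at E10.5, and since 1 of the 3 at each stage was under 0.1 the numbers were not taken as pairs. As a hint from the data toward shared effects, 4 of 6 arrays of each stage correlated best with their own number. With a replicate block Rnase4 gave -0.41 (limma adjusted p = 0.112) at E9.0 and -0.86 (adjusted p = 0.00269) at E10.5, and the block changed no call of Rnase4 or Rnh1. Background counts were less stable than the members. Genes called at E9.0 numbered 215, and 33 to 290 without 1 array, 349 with the replicate block, 476 with a batch block, 69 within replicates 1 and 2 and 61 with only the groups compared. At E10.5 they numbered 1325, and 693 to 1630 without 1 array, 873 among brighter genes, 2081 with a batch block and 773 with only the groups compared. For the change between stages they numbered 34, and 12 to 90 without 1 array, 115 and 91 with the blocks and 0 by limma among brighter genes, where 680 had an unadjusted p under 0.05.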

Other observations

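Over the 12 deviations from group means, the genes most like Ang on 1438936_s_at by Pearson r were Efcc1 (0.936), Grm7 (0.927), Iglv1 (0.920), Stmn3 (0.914) and Mavs (0.890). None of them was among the genes most like Ang over the arrays themselves. The standard deviations of their levels over the 12 arrays were small, from 0.066 (Efcc1) to 0.27 (Mavs).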
